A study of Mus musculus with 31 samples.

Results

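A set of 9 genes of platinum, copper and metallothionein handling was followed across kidneys of mice given cisplatin or buffer. They are Slc47a1, Slc31a1, Slc31a2, Atox1, Atp7a, Atp7b, Mt1, Mt2 and Ggt1, taken by symbol from the deposited gene table, and they make up 9 of its 55487 genes. All 9 passed the filter on low counts, which left 19268 genes to be tested. Bulk mRNA libraries had been made from 31 kidneys, each of a different male B6 mouse. The mice were either wild type (WT) or of an Nbl1 genotype labelled HET, Nbl1 being a secreted antagonist of bone morphogenetic proteins. They received either cisplatin or phosphate-buffered saline (PBS) for 4 weeks from an age of 8 weeks. Kidneys were taken 3 days after the treatment, at a stated age of 11 weeks, and how these times add up is not clear from the labels. The 4 groups were WT PBS (8 mice), WT cisplatin (8), HET PBS (7) and HET cisplatin (8). Neither the dose of cisplatin nor the nature of the Nbl1 allele is stated there.

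Cisplatin is a platinum drug that reaches kidney tubule cells in part through carriers meant for other substrates. Slc22a2 takes organic cations up from the blood side of the proximal tubule, Slc47a1 (MATE1) passes them out into the urine, and the copper importer Slc31a1 (CTR1) has been reported to take up platinum as well. Inside the cell the chaperone Atox1 hands copper to the copper-pumping ATPases Atp7a and Atp7b. Mt1 and Mt2 encode metallothioneins, small cysteine-rich proteins that bind zinc, copper and platinum and that are induced by zinc through the factor Mtf1 and by glucocorticoids. Ggt1 is the brush-border enzyme that cleaves glutathione and its conjugates outside the cell.

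Mt1 and Mt2 rose, and Ggt1, Slc47a1 and Slc31a1 fell, in cisplatin kidneys of both genotypes. Mt2 rose 6.83-fold and Mt1 4.57-fold in WT kidneys, while Ggt1 fell 6.73-fold, Slc47a1 3.89-fold and Slc31a1 2.22-fold. The PBS levels of Mt1 and Mt2 went with animal number, and the values are given below. Slc31a2, Atox1 and Atp7a rose by smaller amounts, and Atp7b fell. Of the 9 genes, 5 rose and 4 fell in WT, and the same 5 and 4 in HET (edgeR quasi-likelihood test, adjusted p under 0.05 over all tested genes). This has to be read against a wide response: 63.2% of all tested genes were called in WT (33.6% higher and 29.6% lower) and 59% in HET (31% higher and 28% lower). No member differed between the genotypes past the threshold. Of all genes, edgeR called 0% under PBS, where 968 had an unadjusted p under 0.05 and DESeq2 called 5, and 0.00519%, a single gene, under cisplatin.

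Total counts per library, in units of 1e6 counts, ran from 29.23 to 37.3 in the PBS groups and from 24.65 to 31.92 in the cisplatin groups. The kidneys carried their defining markers, with a median of 7290 CPM (counts per 1e6 counts of a library, with TMM scaling) for Lrp2 of the proximal tubule and 2980 for Umod of the thick ascending limb in WT PBS. Under PBS, Nbl1 ranged from 3.71 to 7.9 CPM in WT and from 0.106 to 4.2 in HET, and under cisplatin from 10.7 to 26.2 and from 0.861 to 13.9. In 5 libraries the reads of Nbl1 or of Htr6, the gene called between genotypes, went against the label or stood apart from their group. The libraries labelled HET PBS 1 and 6 had 3 and 13 counts of Nbl1, those labelled HET cisplatin 3 and 4 had 37 and 31, and the library labelled WT PBS 6 had 22 counts of Htr6 where the other WT libraries had at most 2. Each group below is meant as labelled, and the calls of the members under cisplatin were the same without these 5. All 20 proximal tubule markers fell in cisplatin kidneys of each genotype. Their summed level was 30800 to 33900 CPM in WT PBS against 3410 to 13300 in WT cisplatin, and 31800 to 35800 against 3030 to 13600 in the HET groups. All 10 injured tubule markers rose. Their summed level was 658 to 1000 CPM in WT PBS against 5870 to 7490 in WT cisplatin, and 816 to 986 against 2970 to 7500 in the HET groups. In bulk tissue, fewer cells of a type and less RNA per cell cannot be told apart. The part of these shifts in the results on the 9 genes was not tested.

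Mt2 and Mt1 lie side by side on mouse chromosome 8 on the + strand, Mt2 at chr8:94172664-94173568 and Mt1 at chr8:94179082-94180327 (GENCODE M21, GRCm38), with 5513 bases between them. Because they moved together in every comparison that follows, the 250 bases before each RefSeq start (GRCm38.p6) are shown, Mt2 at chr8:94172368-94172617 and Mt1 at chr8:94178839-94179088. Capitals mark matches on either strand to the core of the metal response element bound by Mtf1, searched as TGCACNC or TGCGCNC.
Mt2: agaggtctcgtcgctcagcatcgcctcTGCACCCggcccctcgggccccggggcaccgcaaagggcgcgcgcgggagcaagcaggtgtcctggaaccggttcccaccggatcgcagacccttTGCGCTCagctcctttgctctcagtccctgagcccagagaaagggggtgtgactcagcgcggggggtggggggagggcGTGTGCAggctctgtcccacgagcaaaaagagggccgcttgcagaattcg
Mt1: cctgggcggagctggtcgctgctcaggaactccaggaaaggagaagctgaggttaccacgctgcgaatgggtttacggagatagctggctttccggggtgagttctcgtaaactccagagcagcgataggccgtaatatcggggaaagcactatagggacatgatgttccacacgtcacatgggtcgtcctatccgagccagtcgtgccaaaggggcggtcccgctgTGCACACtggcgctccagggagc

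The Mt2 stretch held 3 matches, beginning 223 and 128 bases before the start on the + strand and 50 bases before it on the other strand. As many were found in 1.26% of the 32851 RefSeq promoters of the same length. The Mt1 stretch held 1 match, 23 bases before the start, and 21.4% of promoters hold at least that many. With the 50 bases after the start included, Mt2 held 4 matches (0.517% of promoters hold as many) and Mt1 held 3 (1.97%). Of the 3 Mt1 transcripts in GENCODE, 2 begin 122 and 152 bases after the RefSeq start, so the stretch next to those starts is outside these windows. The 2 Mt2 transcripts begin 46 and 242 bases after theirs, of which the first is within the window that includes the 50 bases and the second is outside it. Among the other members with an entry, Atp7a held 2 matches before its start (5.17% of promoters), Slc31a2 and Atp7b 1 each, and Slc31a1, Atox1 and the 4 starts of Ggt1 none. A match is a run of letters and not a measured binding site.

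Levels per transcript length, as deposited TPM, put the genes in a different order in PBS and cisplatin kidneys. In WT PBS the medians ran from Ggt1 at 482 TPM through Slc47a1 (143), Atox1 (115), Mt1 (78.4), Mt2 (42.3), Slc31a1 (34.4), Atp7a (5.88) and Slc31a2 (4.12) down to Atp7b at 0.86. In that order Atox1 and Mt1, Mt1 and Mt2, and Mt2 and Slc31a1 overlapped between animals, and the other neighbours did not. In WT cisplatin the metallothioneins came first, Mt1 at 497 and Mt2 at 431 TPM, followed by Atox1 (206), Ggt1 (97.1), Slc47a1 (47), Slc31a1 (21.6), Atp7a (10.8), Slc31a2 (9.48) and Atp7b (0.78). There, Mt2 and Atox1, Slc31a1 and Atp7a, and Slc31a2 and Atp7b were the neighbours that did not overlap. The HET groups gave the same order under each treatment. Ggt1 thus went from the first to the fourth place among the 9, and Atp7b stayed the lowest.

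**Figure D1:**
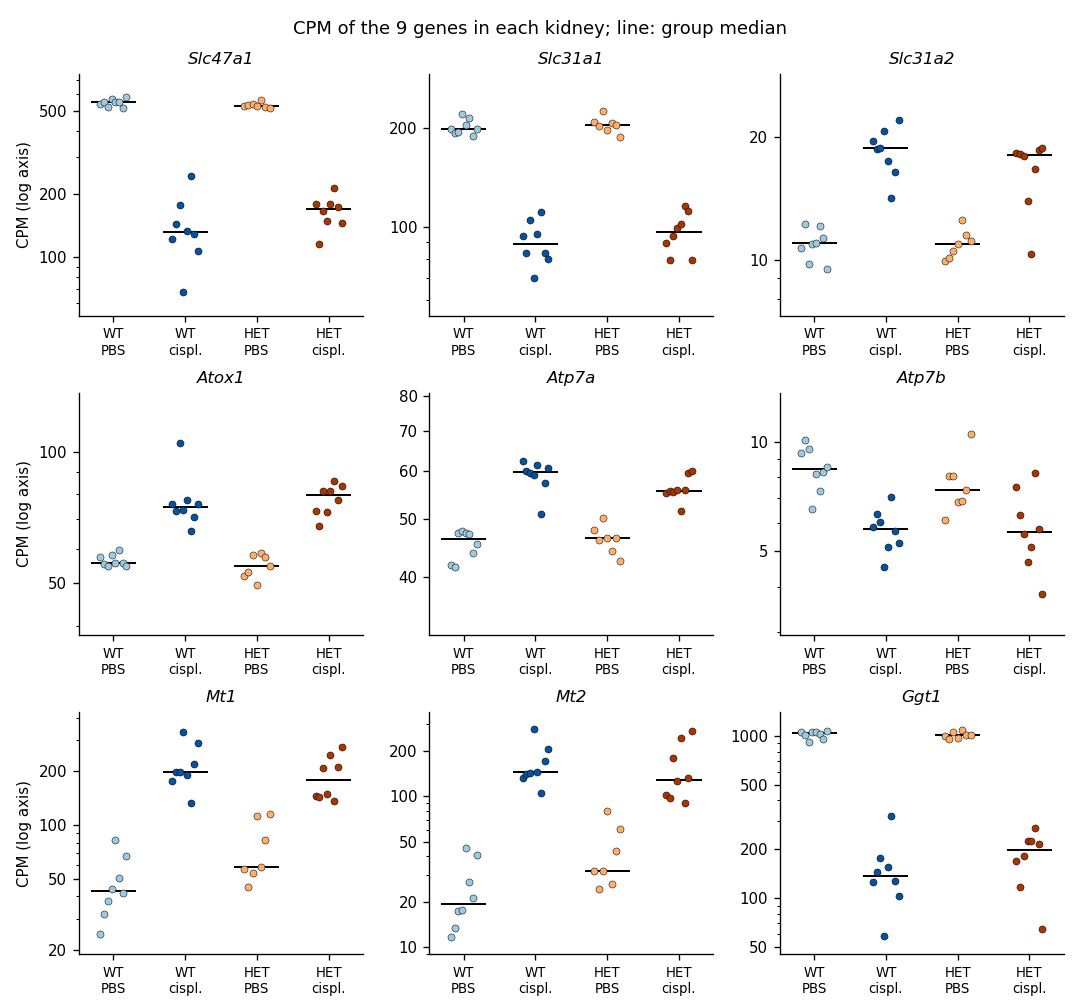
CPM (TMM scaling, log axis) of the 9 genes in each of the 31 kidneys, 1 point per animal, by genotype and treatment, with the group median as a line. The cisplatin points of Mt1 and Mt2 lie above all PBS points of their genotype, and those of Slc47a1, Slc31a1 and Ggt1 lie below them.

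Metallothioneins came first by the size of their rise. Mt1 in WT PBS kidneys had a lowest, median and highest level of 24.7, 43.1 and 82.4 CPM, against 134, 198 and 331 in WT cisplatin. In HET PBS kidneys Mt1 had 45.1, 58.2 and 116 CPM, against 137, 179 and 275 in HET cisplatin. Every cisplatin kidney was above every PBS kidney of its genotype, while the spread within the PBS groups was wide. The log2 fold change of Mt1 was 2.19 in WT (SE 0.24, adjusted p = 1.98e-09) and 1.34 in HET (SE 0.24, adjusted p = 1.88e-05).

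Mt2 followed the same pattern at a lower count. Its lowest, median and highest levels were 11.7, 19.4 and 45.3 CPM in WT PBS and 105, 144 and 279 in WT cisplatin. In HET they were 24.2, 32.1 and 80.5 CPM under PBS and 90.1, 129 and 272 under cisplatin. The groups again did not overlap, and the kidney labelled HET PBS 4, the highest under PBS, came close to the lowest HET cisplatin kidney. The log2 fold change was 2.77 (SE 0.31, adjusted p = 3.44e-09) in WT, and 1.74% of all tested genes had a higher change. In HET it was 1.86 (SE 0.31, adjusted p = 6.12e-06), with 3.23% of genes higher. The exons of Mt2 overlap those of Gm45774 on the other strand, and whether counting used strand is not stated, so reads of the pair cannot be told apart. Gm45774 itself had at most 23 counts in any library. The other metallothioneins were hardly read at all: Mt3 summed to 125 counts over the 31 libraries, and Mt4 had 0.

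Mt2 gained on Mt1. The ratio of their TPM within a kidney was 0.49, 0.559 and 0.706 (lowest, median and highest) in WT PBS and 0.836, 0.892 and 0.995 in WT cisplatin, with no overlap. In HET it went from 0.518, 0.671 and 0.826 to 0.752, 0.93 and 1.17, where the groups overlapped. The tests, here and for the ratios below, used the log2 ratio of rounded counts with 0.5 added to each count. This log2 ratio rose by 0.63 in WT (exact permutation test over animals, two-sided, p = 0.000155, the smallest that 8 against 8 can give, adjusted p = 0.00062). In HET it rose by 0.50 (exact permutation p = 0.00218, adjusted p = 0.00436). P-values of the ratios were adjusted over 16 tests (4 ratios in 4 comparisons), and the ratios were chosen after values had been seen. Neither genotype comparison of this ratio passed, with differences of 0.18 under PBS (exact permutation, adjusted p = 0.197) and 0.04 under cisplatin (adjusted p = 0.805).

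Under PBS, Mt1 and Mt2 were higher in HET than in WT by log2 0.66 (SE 0.24, 95% interval 0.17 to 1.14) and 0.82 (SE 0.30, interval 0.20 to 1.44). Neither passed the threshold over all genes (edgeR, unadjusted p of 0.00906 and 0.0111, adjusted p = 0.778 for each). The groups overlapped, with 3 of 7 HET kidneys above the highest WT kidney for Mt1 and 2 of 7 for Mt2. Under cisplatin the differences were −0.20 (interval −0.66 to 0.27) and −0.09 (interval −0.68 to 0.50). The interaction, the cisplatin response in HET minus that in WT, was −0.85 (SE 0.33, adjusted p = 0.756) for Mt1 and −0.91 (SE 0.42, adjusted p = 0.879) for Mt2. The edgeR test called 0% of all genes in it. Over all tested genes 5.02% had an unadjusted p under 0.05 between the genotypes under PBS and 5.6% in the interaction.

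Genes of the glucocorticoid response, which were listed because glucocorticoids induce metallothioneins, varied with Mt1 and Mt2 among animals of the same treatment. The list held Fkbp5, Tsc22d3, Per1, Zbtb16, Sgk1, Dusp1, Klf9 and Nr3c1, and its score in a kidney is the mean of their log2 CPM. Across the 15 PBS kidneys Mt1 correlated with the score at r = 0.82 (Spearman rho 0.79, permutation p = 0.0001 and 0.00076, adjusted p = 0.00085 and 0.006) and Mt2 at r = 0.85 (rho 0.87, permutation p = 3e-05 and 4e-05, adjusted p = 0.00047 for each). Without the 2 kidneys farthest from the median, r was 0.74 and 0.79. Within WT PBS r was 0.92 for Mt1 and 0.90 for Mt2, and within HET PBS 0.51 and 0.68. Both the metallothioneins and, in WT, the score also went with the animal numbers, since 4 of 8 WT PBS and 4 of 7 HET PBS mice are numbered in the 600s, the range that holds all HET cisplatin mice, and the others are not. Mt2 ran from 21.1 to 45.3 CPM in WT PBS mice of that range and from 11.7 to 17.7 in the others. Mt1 overlapped there, at 42 to 82.4 CPM inside the range and 24.7 to 44.2 outside it. The score ran from 6.49 to 7.36 inside and from 5.63 to 6.9 outside. In HET PBS mice Mt1 ran from 58.2 to 116 CPM inside the range and from 45.1 to 56.6 outside it. Mt2 overlapped in these mice, at 26.2 to 80.5 CPM inside and 24.2 to 32.1 outside. Their scores were 6.68 to 7.61 inside and 7.14 to 7.47 outside. Among the 8 PBS mice inside the range r with the score was 0.72 for Mt1 and 0.80 for Mt2, and among the 7 outside it 0.98 and 0.94. Correlations within the range were added after values had been seen. Across the 16 cisplatin kidneys r was 0.64 for Mt1 (rho 0.59, permutation p = 0.0075 and 0.018, adjusted p = 0.033 and 0.077) and 0.62 for Mt2 (rho 0.66, permutation p = 0.0094 and 0.0078, adjusted p = 0.038 and 0.037). This score was added after values had been seen, and its p-values were adjusted together with all 94 relations computed.

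The score ran from 5.63 to 7.36 in WT PBS and from 6.68 to 7.61 in HET PBS, and the ranges overlap. Its part in the difference between the genotypes was not tested. With mice of the 600s alone, the differences of Mt1 and Mt2 between the genotypes under PBS were 0.61 and 0.65 (edgeR, adjusted p = 0.988 and 1). No gene of the list was called between the genotypes under PBS. Their log2 differences ran from −0.18 to 1.17, with a median of 0.32. Tsc22d3, a glucocorticoid-induced leucine zipper protein, differed by log2 0.71 (SE 0.21, adjusted p = 0.67) and Fkbp5, a cochaperone of the glucocorticoid receptor, by 0.81 (SE 0.25, adjusted p = 0.689). Under cisplatin 2 of the 8 genes rose and 1 fell in WT (median log2 change 0.15), and none rose and 1 fell in HET (median −0.26). Over all genes 33.6% rose and 29.6% fell in WT, and 31% and 28% in HET. Fkbp5 rose by 1.0 in WT (SE 0.25, adjusted p = 0.000735) and was at −0.17 in HET (SE 0.25, adjusted p = 0.59), while Klf9 fell by 0.57 (SE 0.18, adjusted p = 0.00576) in HET. Scaling by library totals alone, under which 61.4% of all genes were called higher and 14.9% lower in WT (62.2% and 12.5% in HET), gave 4 rises and no fall in WT and 1 rise and no fall in HET. Klf9 in HET was then at −0.18 (adjusted p = 0.316).

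**Figure D2:**
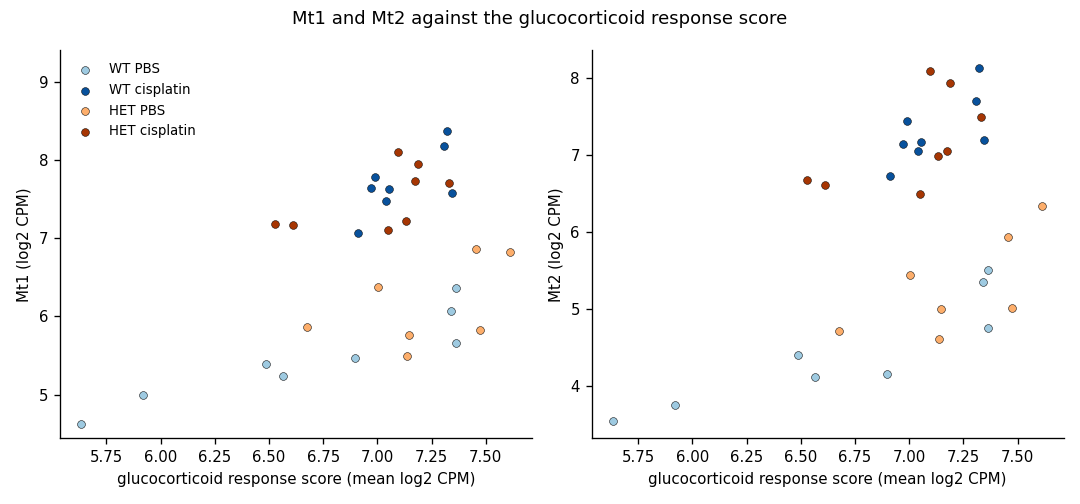
Log2 CPM of Mt1 (left) and Mt2 (right) against the glucocorticoid response score (mean log2 CPM of 8 genes), 1 point per kidney, coloured by group. Within the PBS kidneys both genes climb with the score (r = 0.82 and 0.85), and the cisplatin kidneys lie higher at a like score.

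Ggt1, which cleaves glutathione at the brush border, was the most abundant of the 9 genes under PBS and had the largest fall. In WT PBS it had 919, 1040 and 1070 CPM as lowest, median and highest, against 58.7, 137 and 321 in WT cisplatin. The HET values were 960, 1010 and 1080 CPM under PBS and 64.2, 199 and 270 under cisplatin. No cisplatin kidney reached the range of the PBS kidneys, and their spread, relative to the level, was much wider. The log2 fold change was −2.75 in WT (SE 0.24, adjusted p = 1.79e-11) and −2.47 in HET (SE 0.24, adjusted p = 2.9e-10). In WT, 280 of the called genes fell further.

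Slc47a1, the exporter of organic cations, was tightly held under PBS and scattered under cisplatin. It had 512, 549 and 578 CPM in WT PBS and 68.1, 131 and 244 in WT cisplatin. In HET it had 512, 529 and 563 CPM under PBS and 116, 170 and 213 under cisplatin. The groups were far apart in each genotype, with log2 fold changes of −1.96 (SE 0.15, adjusted p = 1.01e-12) and −1.69 (SE 0.15, adjusted p = 4.8e-11). Its partner on the uptake side, Slc22a2, fell further, with log2 fold changes of −3.02 (SE 0.27, adjusted p = 2.9e-11) and −2.74 (SE 0.27, adjusted p = 3.38e-10). The TPM ratio of Slc47a1 to Slc22a2 within a kidney therefore went up, from 1.39, 1.45 and 1.59 to 2.32, 3.5 and 5.33 in WT and from 1.32, 1.43 and 1.65 to 2.17, 2.88 and 6.89 in HET. Neither genotype showed overlap, and the log2 ratio of their counts rose by 1.19 and 1.14 (exact permutation, adjusted p = 0.00062 and 0.000829).

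The copper importer Slc31a1 and its relative Slc31a2 (CTR2), which lies mainly in inner membranes and can release copper from them, moved in opposite directions. They are neighbours on chromosome 4, both on the + strand, with 62315 bases between them. Slc31a1 had 188, 198 and 220 CPM in WT PBS and 70.1, 88.7 and 111 in WT cisplatin, with 187, 204 and 224 against 79.6, 97 and 116 in HET. Slc31a2 had 9.46, 10.9 and 12.2 CPM in WT PBS and 14.2, 18.7 and 22 in WT cisplatin, with 9.94, 10.9 and 12.5 against 10.3, 18.1 and 18.8 in HET. No groups overlapped except for Slc31a2 in HET, where 7 of 8 cisplatin kidneys lay above all PBS kidneys. Slc31a1 fell by 1.15 in WT (SE 0.080, adjusted p = 1.35e-13) and by 1.08 in HET (SE 0.082, adjusted p = 1.47e-12) on the log2 scale. Slc31a2 rose by 0.76 (SE 0.097, adjusted p = 4.78e-08) and 0.60 (SE 0.10, adjusted p = 5.8e-06). These sizes depend on scaling: with library totals Slc31a1 was at −0.76 in WT and −0.68 in HET, and Slc31a2 at 1.15 and 1.01. The TPM ratio of Slc31a2 to Slc31a1 had a median of 0.119 in WT PBS and 0.446 in WT cisplatin, and of 0.122 and 0.395 in HET. The log2 ratio of their counts rose by 1.92 and 1.67 (exact permutation, adjusted p = 0.00062 for each).

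Atox1, the copper chaperone, rose in each genotype. It had 54.7, 55.6 and 59.7 CPM in WT PBS and 66, 74.6 and 105 in WT cisplatin, with 49.5, 54.8 and 58.6 against 67.6, 79.5 and 85.6 in HET. The groups did not overlap. The log2 fold change was 0.45 in WT (SE 0.065, adjusted p = 3.54e-07) and 0.51 in HET (SE 0.067, adjusted p = 1.18e-07). With library totals it was 0.84 in WT and 0.91 in HET.

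The copper ATPases that Atox1 serves parted ways. Atp7a, which pumps copper out of most cell types, had 41.6, 46.3 and 47.7 CPM in WT PBS and 50.8, 59.8 and 62.3 in WT cisplatin, with 42.5, 46.4 and 50.1 against 51.5, 55.7 and 60 in HET. Every cisplatin kidney was above the PBS kidneys of its genotype, although the rise was the smallest of the 5, with log2 fold changes of 0.38 (SE 0.044, adjusted p = 6.84e-09) and 0.28 (SE 0.045, adjusted p = 3.72e-06). With library totals the rise of Atp7a was 0.77 in WT and 0.69 in HET. Atp7b, best known for copper export from liver, was the least abundant member, with 6.54, 8.41 and 10.1 CPM in WT PBS and 4.53, 5.76 and 7.05 in WT cisplatin. In HET it had 6.1, 7.38 and 10.5 CPM under PBS and 3.83, 5.67 and 8.2 under cisplatin. Its groups overlapped in both genotypes, and 7 of 8 WT and 5 of 8 HET cisplatin kidneys were below the lowest PBS kidney. The log2 fold change was −0.57 in WT (SE 0.13, adjusted p = 0.000304) and −0.39 in HET (SE 0.13, adjusted p = 0.0129). The fall of Atp7b was relative to TMM scaling: with library totals it was −0.18 (adjusted p = 0.221) in WT and 0.01 (adjusted p = 0.926) in HET. The TPM ratio of Atp7a to Atp7b does not depend on scaling, and its median went from 7.04 to 14 in WT and from 8.42 to 13.2 in HET. The log2 ratio of their counts rose by 0.94 and 0.69 (exact permutation, adjusted p = 0.000829 and 0.00391), with overlap in each genotype.

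**Figure D3:**
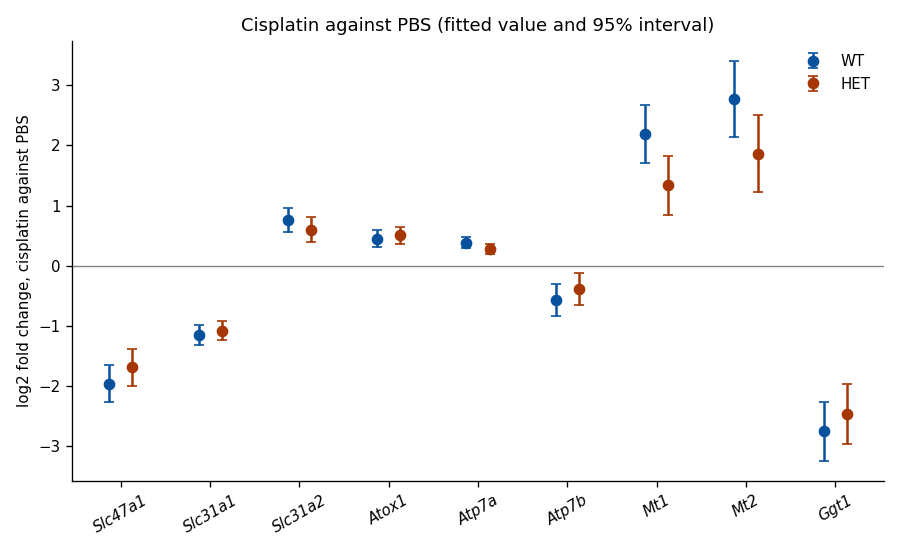
Fitted log2 fold change, cisplatin against PBS, of the 9 genes in WT and HET, with the 95% interval of the edgeR fit. The intervals of all 18 values exclude 0, those of Mt1 and Mt2 are the highest, and those of Ggt1 and Slc47a1 the lowest.

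**Figure D4:**
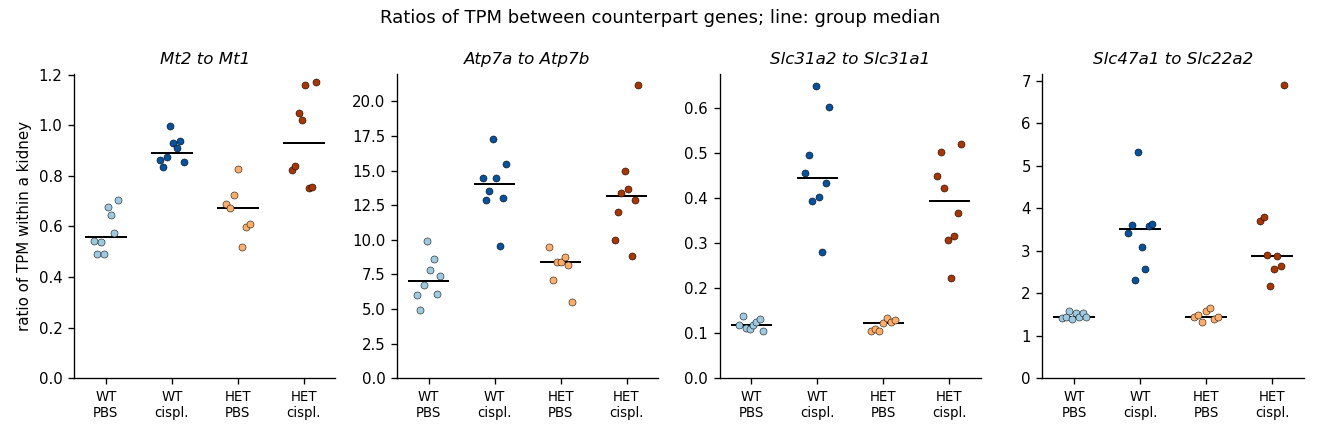
Ratio of deposited TPM between counterpart genes within each kidney, 1 point per animal, with the group median as a line. All 4 ratios are higher under cisplatin in each genotype, and HET and WT overlap under each treatment.

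Counted by groups that do not overlap, 8 of the 9 genes were apart in WT, the exception being Atp7b, and 7 of 9 in HET, the exceptions being Atp7b and Slc31a2. The same held for 31.8% of all tested genes in WT and 26% in HET. Between the genotypes, the other 7 members differed by −0.14 to 0.03 (log2) under PBS and by −0.15 to 0.28 under cisplatin, with adjusted p-values of at least 0.892. For Ggt1 the 95% interval of the difference was −0.48 to 0.47 under PBS and −0.18 to 0.74 under cisplatin, and for Slc31a1 it was −0.15 to 0.19 and −0.06 to 0.26. These intervals are what bounds a difference between HET and WT.

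Among the cisplatin kidneys, members differed in how they varied with the remaining proximal tubule signal, measured as the mean log2 CPM of the 20 markers. Ggt1 followed it most closely, with r = 0.99 over the 16 kidneys (rho 0.97, permutation p = 1e-05, the smallest that 100000 resamples can give, adjusted p = 0.00019 and 0.00023). Slc31a1 gave r = 0.93 (rho 0.95, permutation p = 1e-05 for each, adjusted p = 0.00019 and 0.00023) and Slc47a1 r = 0.85 (rho 0.89, permutation p = 5e-05 and 2e-05, adjusted p = 0.00052 and 0.00038). Leaving out the 2 kidneys farthest from the median of the gene left r at 0.97, 0.88 and 0.73. Within WT cisplatin the r values were 0.99, 0.96 and 0.99, and within HET cisplatin 0.99, 0.89 and 0.69. Atox1 did not follow the score (r = 0.15, rho 0.24, permutation p = 0.56 and 0.38, adjusted p = 0.71 and 0.54), and Atp7a was at r = −0.54 (rho −0.50, adjusted permutation p of 0.085 and 0.13). Slc31a2 passed by rank only, with r = −0.56 and rho −0.65 (permutation p = 0.026 and 0.0079, adjusted p = 0.074 and 0.037), and r was −0.65 without HET cisplatin 4 and 5. Atp7b passed by r only, with r = 0.66 and rho 0.45 (permutation p = 0.0058 and 0.08, adjusted p = 0.027 and 0.19), and r was 0.40 without HET cisplatin 6 and 8. Among the 14 cisplatin mice of the 600s, r was 0.99 for Ggt1, 0.94 for Slc31a1, 0.85 for Slc47a1 and 0.68 for Atp7b. Under PBS, where the score was nearly flat at 9.6 to 9.8, Slc31a1 alone of the 9 passed (r = 0.87, rho 0.81, permutation p = 4e-05 and 0.00026, adjusted p = 0.00047 and 0.0027).

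Metallothioneins were lower where more of that signal remained, but this rested on a few kidneys. Mt1 gave r = −0.70 with the score (rho −0.53, permutation p = 0.0025 and 0.035, adjusted p = 0.014 and 0.11), and r = −0.51 without the kidneys WT cisplatin 4 and 6. The correlation was −0.91 within WT and −0.44 within HET. For Mt2, r was −0.66 (rho −0.50, permutation p = 0.0055 and 0.051, adjusted p = 0.027 and 0.13) and −0.33 without WT cisplatin 4 and HET cisplatin 8. The same kidneys set the relation of Mt1 with Slc47a1, where r went from −0.61 (rho −0.46, permutation p = 0.01 and 0.071, adjusted p = 0.039 and 0.17) to −0.28 without WT cisplatin 4 and 6.

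**Figure D5:**
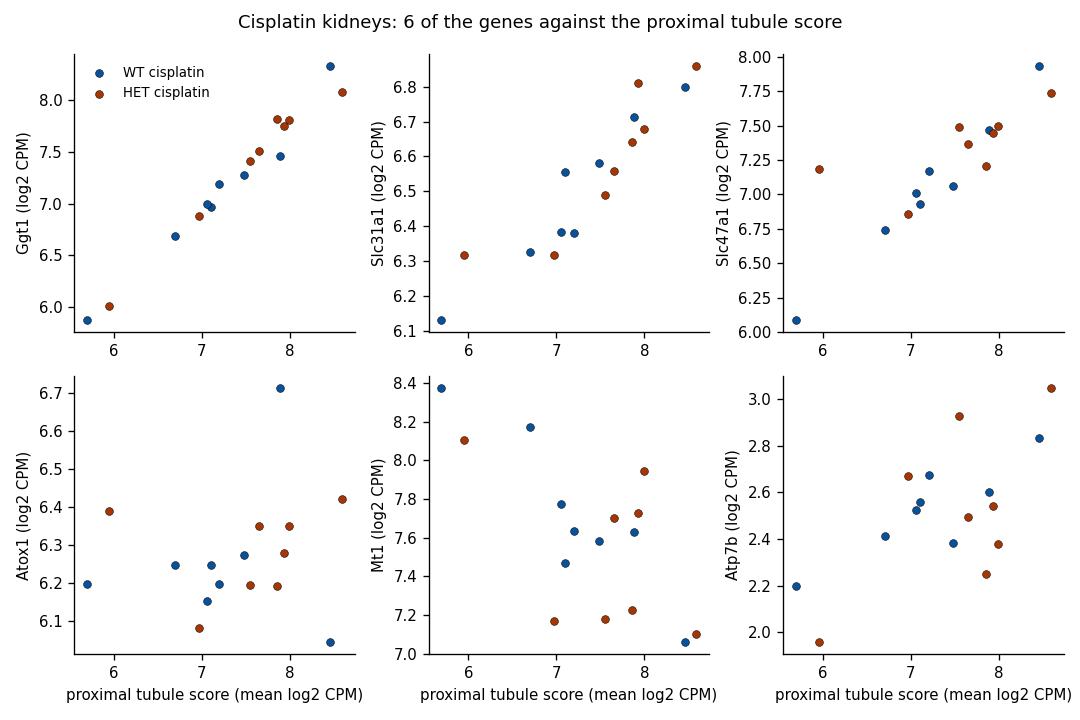
Log2 CPM of Ggt1, Slc31a1, Slc47a1, Atox1, Mt1 and Atp7b against the proximal tubule score (mean log2 CPM of 20 markers) in the 16 cisplatin kidneys, coloured by genotype. Ggt1 lies near a straight line (r = 0.99), Atox1 shows no slope (r = 0.15), and Mt1 falls as the score climbs (r = −0.70).

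The members were also compared with each other, in 36 pairs under each treatment. By Pearson's r, 4 pairs passed the adjusted threshold among PBS kidneys and 12 among cisplatin kidneys. No share over pairs of other genes was computed beside these counts. With the proximal tubule score, 1 of the 9 members passed by r under PBS and 6 under cisplatin. The share of all genes that pass with this score was not computed either, so these counts cannot be read as particular to the members. The part of that score in the number of pairs was not tested. Mt1 and Mt2 were the closest pair, with r = 0.98 under PBS (rho 0.97) and 0.94 under cisplatin (rho 0.91), each with a permutation p = 1e-05 and adjusted p = 0.00019 for r. Atp7b, the least abundant copper ATPase, went against both metallothioneins among cisplatin kidneys. With Mt2 it gave r = −0.82 (rho −0.79, permutation p = 0.00011 and 0.00049, adjusted p = 0.00086 and 0.0042), with −0.88 in WT, −0.81 in HET and −0.72 without HET cisplatin 6 and 8. With Mt1 it gave r = −0.73 (rho −0.72, permutation p = 0.0014 and 0.0024, adjusted p = 0.0092 and 0.015), with −0.86 in WT, −0.73 in HET and −0.65 without the same kidneys. As given above, Atp7b also went with the proximal tubule score at r = 0.66, and Mt1 and Mt2 went against it at −0.70 and −0.66, and the part of that score in these relations was not tested. Under PBS the r values of Atp7b with Mt1 and Mt2 were −0.21 and −0.23 (adjusted permutation p of 0.60 and 0.58). Slc31a2 and Atp7a varied together among cisplatin kidneys at r = 0.76 (rho 0.66, permutation p = 0.00052 and 0.0067).

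Genes whose residual pattern was most like that of each member were sought among 16180 genes, over the 31 libraries and after the group means had been taken off. The measure was Pearson's r of log2 CPM, given as a ranking with no test, and Spearman's rho of the 18 closest pairs (2 per member) ran from 0.593 to 0.928. Ggt1 was closest to Lrp2, the endocytic receptor megalin (r = 0.977, rho 0.80), and Serpinf2 (r = 0.975). Lrp2 is also 1 of the 20 proximal tubule markers. Ggt1 spanned 919 to 1070 CPM in WT PBS and 58.7 to 321 in WT cisplatin, so the cisplatin kidneys weigh most in its r values. Slc47a1 was closest to Cideb (r = 0.954) and Qprt (r = 0.938), and Slc31a1 to Rtn3 (r = 0.949) and Mdh1, the cytosolic malate dehydrogenase (r = 0.943). Mt1 and Mt2 had Map3k6, a stress-activated kinase, in common (r = 0.885 and 0.915), followed by Sema3f for Mt1 (r = 0.865) and the arginase Arg2 for Mt2 (r = 0.896). The other members had looser partners: Atox1 with 5031439G07Rik (r = 0.837), Atp7a with Nufip2 and Snw1 (0.804 and 0.797), Atp7b with C730027H18Rik and Mcm9 (0.798 and 0.777), and Slc31a2 with Ddb2 and Ldb1 (0.777 and 0.761). Arg2 rose by 3.70 in WT (SE 0.21, adjusted p = 1.2e-15) and by 2.91 in HET (SE 0.21, adjusted p = 5.17e-13). Map3k6 rose by 1.72 in WT (SE 0.32, adjusted p = 2.71e-05) and was at 0.71 in HET (SE 0.32, adjusted p = 0.0606).

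Other transporters that carry platinum drugs or their conjugates moved in both directions. Of 16 tested genes, 7 rose and 5 fell in WT (median log2 change 0.19), against 8 and 5 in HET (median 0.33), beside a median of 0.06 over all genes in each genotype. Of all tested genes, 33.6% rose and 29.6% fell in WT, and 31% and 28% in HET. Among the named genes the efflux pumps rose: Abcc3, an exporter of conjugates, by 4.19 in WT (SE 0.21, adjusted p = 4e-17) and 3.84 in HET (SE 0.21, adjusted p = 1.07e-15), and Abcb1b, a P-glycoprotein, by 3.54 (SE 0.16) and 3.69 (SE 0.17). Abcc1, an exporter of glutathione conjugates, rose by 1.16 (SE 0.11) and 1.05 (SE 0.11). Slc47a2, the relative of Slc47a1, stayed near the detection limit with group means of 0.185 to 0.264 CPM. Under library totals the counts were 11 higher and 4 lower in WT, against 11 and 2 in HET. Of all genes, 61.4% were then higher and 14.9% lower in WT, and 62.2% and 12.5% in HET. Not every pump of the list rose: under that scaling Abcg2 was at −0.22 in WT (edgeR, adjusted p = 0.0237) and −0.08 in HET (adjusted p = 0.396). On the same scale Abcc3 was at 4.6 in WT and 4.26 in HET, Abcb1b at 3.93 and 4.1, and Abcc1 at 1.56 and 1.46. Among mice of the 600s alone, 4 rose in HET in place of 8.

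Copper chaperones and copper enzymes moved in both directions. Under TMM scaling, of 24 tested genes, 6 rose and 16 fell in WT (median −0.44), against 6 and 15 in HET (median −0.37), where 33.6% of all genes rose and 29.6% fell in WT and 31% and 28% in HET. Under library totals, 9 were higher and 9 lower in WT, against 10 and 7 in HET, where 61.4% of all genes were higher and 14.9% lower in WT and 62.2% and 12.5% in HET. Sod1, the copper and zinc superoxide dismutase, fell by 1.44 (SE 0.094, adjusted p = 3.62e-14) and 1.32 (SE 0.096, adjusted p = 5.97e-13), and its chaperone Ccs fell by 0.65 (SE 0.10) and 0.51 (SE 0.11). Under library totals Ccs was at −0.26 (adjusted p = 0.00872) in WT and lost its call in HET, at −0.11 (adjusted p = 0.254). Fdx1, a mitochondrial ferredoxin, fell by 1.11 (SE 0.10) and 0.90 (SE 0.10). Ceruloplasmin (Cp), the copper-carrying ferroxidase, rose by 3.29 (SE 0.13, adjusted p = 1.1e-19) and 2.81 (SE 0.13, adjusted p = 1.41e-17), and the metalloreductase Steap2 by 1.08 (SE 0.11) and 1.07 (SE 0.11).

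Zinc transporters and Mtf1 moved in both directions. Of 27 listed genes 21 were tested, of which 7 rose and 9 fell in WT (median −0.01), against 7 and 10 in HET (median −0.07). Over all genes 33.6% rose and 29.6% fell in WT, and 31% and 28% in HET. Slc39a8, a zinc and manganese importer, fell by 1.98 (SE 0.12, adjusted p = 8.76e-15) and 2.01 (SE 0.12, adjusted p = 1.18e-14), and the vesicular exporter Slc30a2 fell by 1.5 (SE 0.12) and 1.56 (SE 0.13). Slc30a5 fell by 0.71 (SE 0.076) and 0.79 (SE 0.079), while the importer Slc39a6 rose by 0.86 (SE 0.097) and 0.99 (SE 0.10). Mtf1 had log2 fold changes of 0.06 (SE 0.062, adjusted p = 0.449) and 0.04 (SE 0.064, adjusted p = 0.603), and Slc30a1, a zinc exporter known as a target of Mtf1, had −0.20 (SE 0.090, adjusted p = 0.051) in WT and fell by 0.40 (SE 0.093, adjusted p = 0.000496) in HET. These values are relative to TMM scaling: under library totals Mtf1 was higher by 0.45 (adjusted p = 4.19e-08) in WT and 0.44 (adjusted p = 1.15e-07) in HET, and Slc30a1 was higher by 0.19 (adjusted p = 0.0305) in WT and at 0 (adjusted p = 0.976) in HET. Ccs, Abcg2, Slc47a2, Mtf1 and Slc30a1 are outside the naming rule and were picked after their values had been seen. Under library totals, 12 of the 21 were higher and 5 lower in WT, against 11 and 4 in HET, beside the shares of all genes given for the copper genes.

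Glutathione and mercapturate genes around Ggt1 moved in both directions, more of them down than up under TMM scaling. Of 22 tested, 6 rose and 13 fell in each genotype, with a median of −0.64 in WT and −0.63 in HET. The shares over all genes were 33.6% higher and 29.6% lower in WT, and 31% and 28% in HET. Among mice of the 600s alone, 3 rose in each genotype in place of 6. Acy3, which removes acetyl groups from mercapturates, fell by 4.34 (SE 0.23, adjusted p = 1.51e-16) and 4.13 (SE 0.23, adjusted p = 6.86e-16). Dpep1, the dipeptidase that acts after Ggt1, fell by 1.74 (SE 0.084) and 1.54 (SE 0.086). Ggct, which degrades gamma-glutamyl amino acids, fell by 2.03 (SE 0.11) and 1.86 (SE 0.11), and the aminopeptidase Lap3 by 1.76 (SE 0.12) and 1.63 (SE 0.13). Under library totals, 10 were higher and 10 lower in WT, against 7 and 10 in HET. Of all genes, 61.4% were higher and 14.9% lower in WT under that scaling, and 62.2% and 12.5% in HET.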

How the data were processed

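The deposited table holds 3 values per library for 55487 genes. Per the file headers and the values, the authors deposited expected counts (estimated per gene, not normalized; 12.5% are not whole), TPM and FPKM. The submitters' processing notes name fastp, STAR, featureCounts, GRCm38 and mm10, with neither versions nor the strand setting. Per the labels' protocols, RNA with an integrity number over 8 went into KAPA mRNA HyperPrep libraries. The deposited FPKM values were not used.

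Expected counts were rounded to whole numbers and tested with edgeR 4.0.16 (quasi-likelihood F test, TMM, filterByExpr by group, R 4.3.3). A single model with 4 group means was fitted to all 31 libraries. Benjamini-Hochberg adjustment ran over 19268 genes within each comparison, and calls are at 0.05. Log2 fold changes use a prior count of 0.125, log2 CPM values use a prior count of 2, and CPM are scaled to 1e6. TPM, as deposited, served for levels between genes and for the lowest, median and highest ratios within a library. The log2 ratios that were tested used rounded counts with 0.5 added to each. Correlations across animals used 100000 permutations, and ratios used exact permutation tests, both two-sided, with Benjamini-Hochberg adjustment over 94 relations and 16 tests. The fits recovered known changes in simulated counts in which few genes changed, as many up as down. That simulation did not test the scaling where most genes are called, as between cisplatin and PBS. Total counts of 24.65 to 37.3 (in units of 1e6) per library leave little counting error for the members with many reads. Counting error is larger for Atp7b, with 123 counts in HET cisplatin 8, and for Slc31a2, with 277 in WT PBS 8. Its part in the spread between animals was not measured.

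The genes named besides the members are, of each pathway list, up to 4 with the smallest p over both cisplatin comparisons, and the 2 genes most like each member, of which 1 is not reported here. The members and lists were chosen with earlier results of these data known. Samples were grouped by the genotype and treatment labels. Animal numbers were taken to mark 1 animal each, and all HET cisplatin animals are numbered 600 to 629, while other groups also hold others. RefSeq promoters were given for 8 of the 9 members. In GENCODE M21, none of the 50-base stretches of the members' transcripts (0%) occurs in another gene. The alternatives were DESeq2 1.42.0, limma 3.58.1 (voom with quality weights, and log2 TPM with 1 or 0.1 added), RLE scaling, library totals, other filters, fits of subsets or with covariates, and leaving out libraries.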

Additional observations from a re-analysis of the deposited data

Results flagged for a closer look

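Each of 3 values stood apart within its group, by a gap to the next library that was large against the group's range; chance alone flags about 1 in 20 groups. Atox1 reached 105 CPM in WT cisplatin 3, where the next library had 77.4 CPM. Ggt1 reached 321 CPM in WT cisplatin 6, and the next had 176 CPM. Atp7a was at 50.8 CPM in WT cisplatin 6, and the next lowest had 57.3 CPM. WT cisplatin 6 also had the highest Slc47a1 (244 CPM) and the lowest Mt1 (134 CPM) of its group. The part of these libraries in the cisplatin responses was measured by leaving both out, an alternative chosen after seeing the data, and each of the 9 genes kept its direction and its side of the threshold in both genotypes.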

How the results depend on the processing

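Of the 45 alternatives, 31 each left out 1 library and 14 were of other kinds. A library of the other genotype is not in the compared groups, so leaving it out could hardly move a fold change. Such cases are counted here but carry little weight. The 18 cisplatin fold changes of the 9 genes, under 45 alternatives each, kept direction and call in 803 cases. Of the others, 4 lost the call and 3 reversed, and each of these was Atp7b. In WT, Atp7b came to −0.18 (adjusted p = 0.221) with library totals and to −0.06 and −0.12 on log2(TPM + 1) and log2(TPM + 0.1). In HET it came to 0.01, 0.02 and 0.04, and without HET PBS 7 to −0.30 (adjusted p = 0.0517, edgeR). These 3 scalings move the median log2 change of all genes from 0.06 to between 0.27 and 0.48. More genes are then called higher and fewer lower, and the sizes of the members move as well. With library totals the changes in WT and HET were −1.57 and −1.29 for Slc47a1, and −2.36 and −2.08 for Ggt1. For Mt1 they were 2.6 and 1.74, and for Mt2 3.18 and 2.27. All genes that rose, cisplatin against PBS in WT, were 11831 with library totals, 12069 on log2(TPM + 1) and 12087 on log2(TPM + 0.1), in place of 6469. All genes that fell, cisplatin against PBS in WT, were 2862, 2445 and 2473 in the same order, in place of 5705. All genes that rose, cisplatin against PBS in HET, were 11992, 12332 and 12365, in place of 5981, and all genes that fell, cisplatin against PBS in HET, were 2400, 2009 and 2029, in place of 5393.

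Between the genotypes under PBS, DESeq2 called 5 genes, log2(TPM + 0.1) called 1, and leaving out the 5 libraries against their label called 2. Leaving out each library in turn called 0 to 2. Under cisplatin, voom called 2 genes, a mean CPM of at least 1 left 0, and leaving out the same 5 libraries called 2. No member was called among them. The difference of Mt2 between the genotypes under cisplatin ranged from −0.25 to 0.06 with libraries left out in turn, reversing without WT cisplatin 4. The cause was not tested. No paired analysis was possible because replicate numbers follow accession order and each animal gave 1 library. Leaving out WT cisplatin 3 and 6, chosen after seeing the data, changed no member's call under cisplatin, though neither library is in the groups compared in HET. Counts per list moved with scaling and with the animal numbers as given in the report.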
